A study of Mus musculus with 12 samples.

Results

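The Myc and Mxd family of mouse D3 embryonic stem cells was described through 8 genes: the Myc paralogs Myc, Mycn and Mycl, their partner Max, and the repressors Mxd1, Mxd3, Mxd4 and Mnt. Members were the 20 probe sets, of 45037 on the array after control probe sets were left out, whose annotated gene symbol is exactly one of these names. Each gene was represented by its brightest probe set, by mean log2 signal over the 12 arrays, and the others served as a check. All 8 brightest probe sets passed the filter on dim probe sets described below, as did 16 of the 20, and they are set among 12737 genes with a tested probe set. D3 is an established mouse embryonic stem cell line.

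Cultures were kept for 7 days in stem cell medium with serum, in 4 groups of 3 arrays each: without LIF and with 50 nM lithium, without LIF, with LIF and 50 nM lithium, and with LIF, where LIF was given at 1000 units per ml. The lithium concentration is printed as the labels state it. It lies far below the millimolar range in which lithium is generally used on such cells, and the dose that the cultures received could not be checked from the arrays. LIF is the cytokine that, through Stat3, helps keep mouse embryonic stem cells undifferentiated, and lithium inhibits the kinase GSK3, which otherwise marks beta-catenin and also Myc protein for degradation. The title names Wnt and LIF signalling as the subject, and the comparisons made here are withdrawal of LIF, addition of lithium, and the interaction of both.

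Myc proteins bind DNA as heterodimers with Max, at E-box sequences such as CACGTG, and activate genes of ribosome production, nucleotide synthesis and cell division. Mxd proteins and Mnt compete for Max and for the same sites, and recruit Sin3 and histone deacetylases to repress transcription. Mycn and Myc are both active in embryonic stem cells, where they sustain proliferation, and Mxd members are known for rising as cells leave the cell cycle and differentiate. Protein stability and binding are not read by an RNA array, so that all values here are transcript signals.

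The arrays were first set against the label. Summed signals of 5 pluripotency markers, of which 5 passed the filter, lay at 2765 to 5903 without LIF and with lithium, 3922 to 5318 without LIF, 9105 to 10694 with LIF and lithium, and 8150 to 12280 with LIF. The 5 trophoblast markers summed to 1201 to 1242, 1031 to 1379, 581 to 643 and 490 to 681 in the same order of groups, and Elf5 among them did not pass the filter. The mesoderm markers summed to 85.2 to 252, 66.3 to 283, 28.0 to 46.7 and 37.4 to 66.1, and the endoderm markers to 303 to 544, 414 to 647, 151 to 348 and 139 to 432, with Afp under the filter. The fibroblast markers, which would mark feeder cells, summed to 120 to 266, 98.2 to 196, 49.1 to 99.1 and 64.9 to 154, with Dcn and Lum under the filter. The neural markers summed to 80.0 to 99.7, 71.2 to 104, 63.0 to 120 and 83.5 to 95.7. The pluripotency, trophoblast and mesoderm sums did not overlap between LIF-free and LIF arrays, while the endoderm, fibroblast and neural sums did. The mesoderm sums were barely apart, at 66.3 without LIF against 66.1 with LIF. Taken singly, Mesp1, Mixl1, Tbx6 and Kdr, the mesoderm markers, each overlapped between LIF-free and LIF arrays. The Gapdh 3' to 5' signal ratio, a measure of RNA integrity, was 0.739 to 0.802 on the LIF-free arrays and 0.798 to 0.860 on the LIF arrays, ranges that touch at their ends. The part of these differences in the results below was not tested. In bulk RNA, fewer cells of a type and less RNA per cell cannot be told apart.

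Mxd4 and Mycl are the members on which the results turn, and their promoters are printed to show what sequence lies before each. RefSeq (GRCm38.p6) held a promoter window, 250 bases before to 50 after the annotated start, for 7 of the 8 members. The windows are 5' to 3' on the gene's strand, and capitals mark CACGTG.
Mxd4, chr5:34187661-34187960, minus strand: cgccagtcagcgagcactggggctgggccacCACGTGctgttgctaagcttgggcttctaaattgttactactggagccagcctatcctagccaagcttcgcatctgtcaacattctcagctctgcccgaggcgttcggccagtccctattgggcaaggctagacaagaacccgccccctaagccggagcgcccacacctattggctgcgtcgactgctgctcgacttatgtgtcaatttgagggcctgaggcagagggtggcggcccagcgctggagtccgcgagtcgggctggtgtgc
Mycl, chr4:122995681-122995980, plus strand: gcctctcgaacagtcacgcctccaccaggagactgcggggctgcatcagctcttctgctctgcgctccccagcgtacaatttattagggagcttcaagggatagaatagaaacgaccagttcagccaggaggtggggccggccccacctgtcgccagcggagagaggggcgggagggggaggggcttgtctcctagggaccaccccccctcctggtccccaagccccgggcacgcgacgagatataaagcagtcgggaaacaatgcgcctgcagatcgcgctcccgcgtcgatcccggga
The Mxd4 window held 1 CACGTG, which starts at base 32 of the 300, and the Mycl window held none. CACGTG reads the same on both strands, and it was present in 7.15% of 32851 promoter windows of the same length. The Mnt and Max windows each held 1 CACGTG, and those of Mycn, Mxd1 and Mxd3 held none. Neither TTCCNGGAA, the palindrome of Stat factors, nor ATCAAAG, the site of TCF factors, was found on either strand in any of the 7 windows, against 1.15% and 3.73% of all windows. A match is a run of letters and was not tested for binding.

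Withdrawal of LIF was accompanied by a higher signal of the brightest Mxd4 probe set, with and without lithium. The other tested Mxd4 probe sets did not rise without lithium. The changes of the Myc paralogs differed in sign, and most members did not pass the test. Signals are MAS5 intensities on a linear scale, scaled so that each array has the same trimmed mean, and are not comparable between probe sets. Changes are log2 differences of group means with their standard error (SE), from limma fitted to the 27022 probe sets above the filter, with Benjamini-Hochberg adjustment over them and a threshold of 0.05. Without lithium, 1 of the 8 members was called, against 9.31% of the probe sets tested and 12.6% of genes by their brightest tested probe set. With lithium it was again 1 of 8, against 12.5% of probe sets and 16.1% of genes. With both pairs averaged it was 2 of 8, against 24.7% of probe sets and 30.9% of genes. Of the probe sets called, 58% were higher without lithium and 60.4% with it, and with arrays centred on their medians these shares were 83.1% and 34.8%. In each of the 3 comparisons the share of members called in these fits lay near or below that of all genes. These fits did not use the replicate numbers, although by the rule given below the numbers pair the samples of withdrawal without lithium. With the replicate number as a block, 5260 of the 27022 probe sets were called without lithium, and Mycl was called as well (adjusted p = 0.0357, limma).

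**Figure D1:**
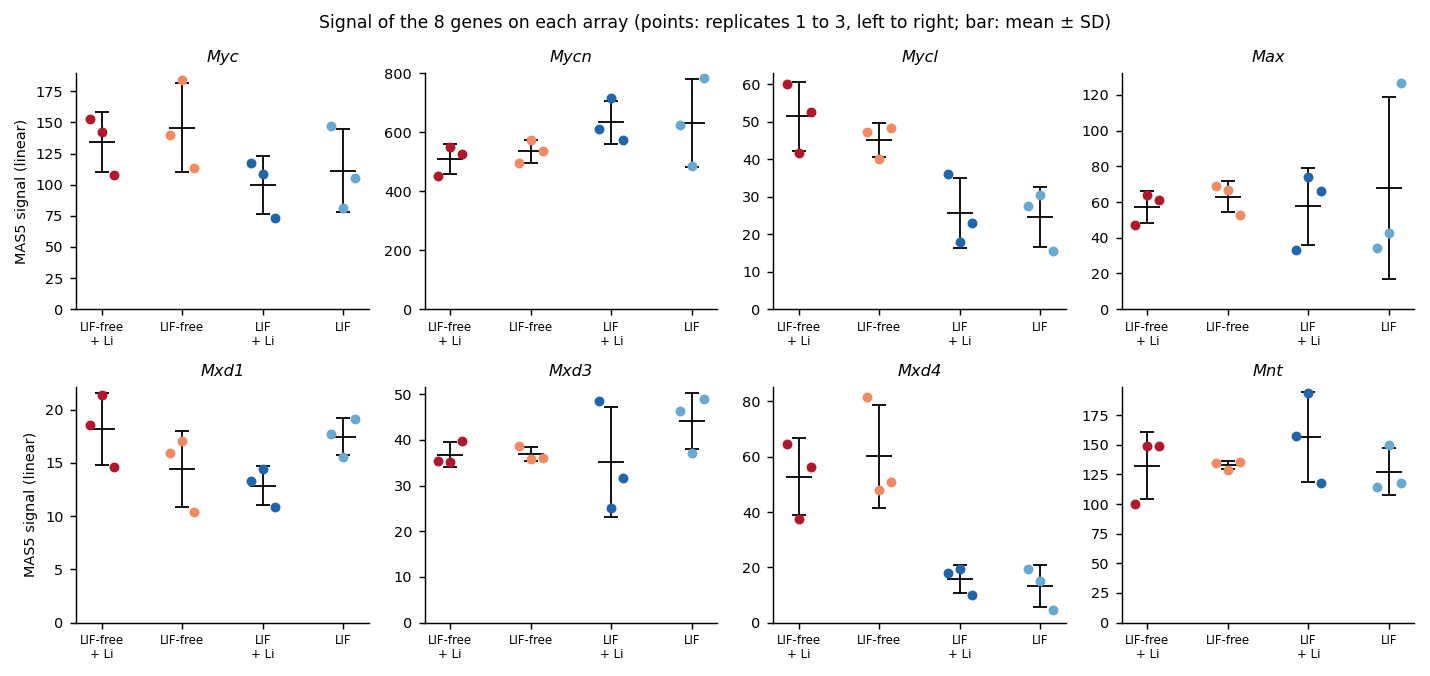
Signal of the brightest probe set of each of the 8 members on each of the 12 arrays (MAS5 signal, linear axis from 0), with points for arrays and bars for the mean ± SD of 3 arrays, for the groups without LIF and with lithium, without LIF, with LIF and lithium, and with LIF. Mxd4 and Mycl are the members whose 6 LIF-free arrays (lowest 37.4 and 40.03) lie above all 6 LIF arrays (highest 19.5 and 36.1). The same holds for 8.22% of tested probe sets.

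Mxd4, a repressor that pairs with Max, was the member with the clearest difference. Its probe set 1434378_a_at gave 81.6, 48.0 and 51.0 without LIF and 19.5, 15.2 and 4.68 with LIF. With lithium it gave 64.6, 37.4 and 56.4 without LIF and 17.8, 19.5 and 9.98 with LIF. No LIF-free array fell within the range of the LIF arrays in either pair. Groups without overlap in either direction were found for 27.5% of tested probe sets without lithium and 33.4% with it. The log2 change was 2.39 ± 0.49 SE without lithium, a ratio of 5.24 (adjusted p = 0.0101, limma, n = 3 arrays per group). With lithium the change was 1.77 ± 0.49, a ratio of 3.40 (adjusted p = 0.0331, limma). Averaged over both pairs it was 2.08 ± 0.35 (adjusted p = 0.000887, limma), and 8.22% of probe sets had all 6 LIF-free arrays above all 6 LIF arrays, as Mxd4 did.

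The call without lithium held when each of the 12 arrays was left out, with adjusted p up to 0.0443, although leaving out the third LIF array lowered the change to 1.76. The call with lithium did not hold without the second or the third array with LIF and lithium, or without any 1 of the 3 LIF-free arrays with lithium (adjusted p up to 0.141). It also ended with quantile normalization, median centring, no filter or no intensity trend (adjusted p between 0.053 and 0.0989). The LIF signals of Mxd4 are low, so that the fold rests on values near the signal of 7.52 that marks the filter, and with 16 added before the logarithm the changes were 1.40 and 1.11.

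The other Mxd4 probe sets differ from it. Probe set 1422575_at changed by -0.01 without lithium (adjusted p = 0.994) and by 1.24 with lithium (adjusted p = 0.0419, limma). Probe set 1422574_at changed by -0.27 without lithium (adjusted p = 0.854). With lithium it gave 11.7 to 21.7 without LIF and 0.65, 2.07 and 9.49 with LIF, so that its change of 2.60 (adjusted p = 0.0237, limma) is a difference from a group mostly under the filter signal of 7.52, with 1 array raised to the floor of 1, and supports no call. Averaged over both pairs, 1422575_at changed by 0.62 and 1422574_at by 1.17, and neither passed (adjusted p = 0.102 and 0.0919). The last of them, 1434379_at, was under the filter. The averaged call of Mxd4 thus rests on its brightest probe set.

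**Figure D2:**
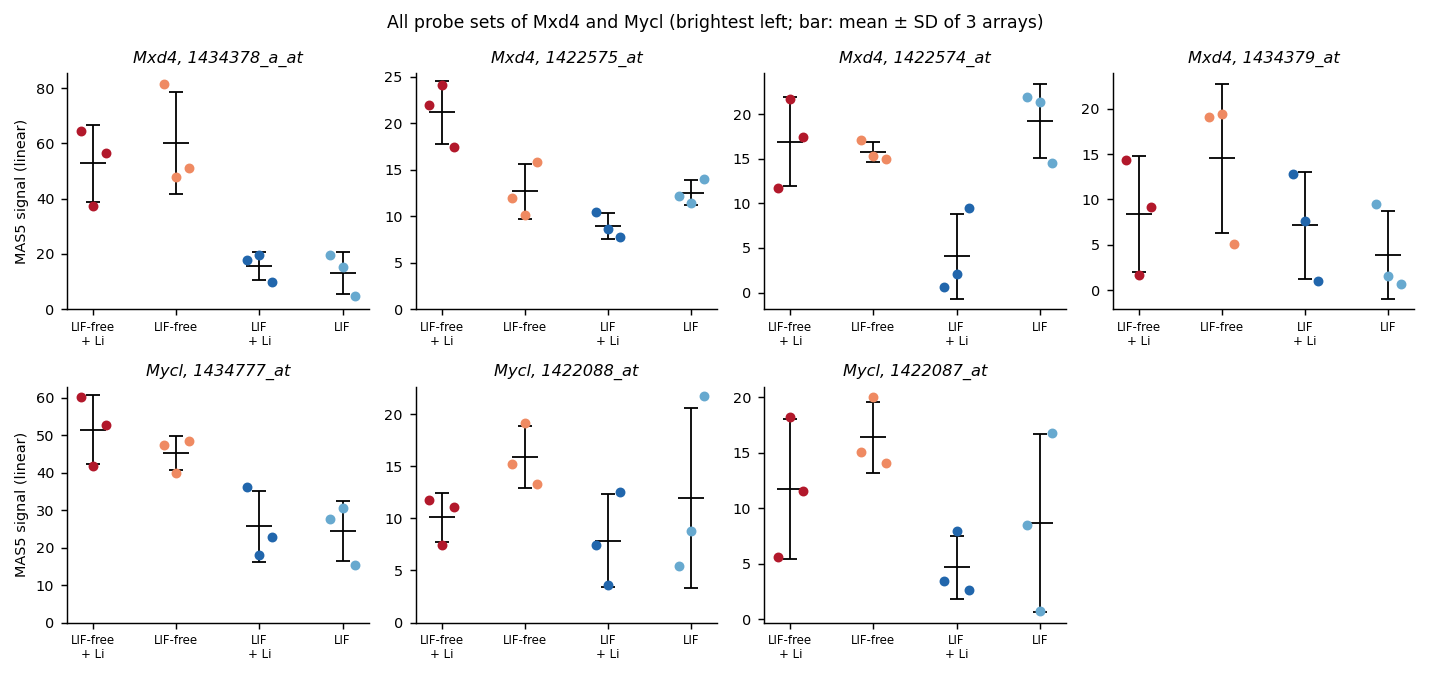
MAS5 signal (linear axis) of each Mxd4 probe set (upper row) and each Mycl probe set (lower row) on the 12 arrays, brightest at the left, with points for arrays and bars for the mean ± SD of 3 arrays. Probe set 1434378_a_at separates LIF-free from LIF arrays with and without lithium, whereas 1422574_at is low in the cultures with LIF and lithium (0.65 to 9.49) and lies at 14.5 to 21.9 in those with LIF.

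Among the other Max partners that repress, Mnt, which is broadly expressed and restrains Myc, had 128.9 to 135.5 without LIF and 114 to 149.9 with LIF (log2 change 0.07, adjusted p = 0.876). With lithium it had 99.7 to 149.03 without LIF and 118 to 194 with LIF (-0.23, adjusted p = 0.531). Mxd1, which rises in differentiating blood and epithelial cells, had 10.4 to 17.0 without LIF and 15.6 to 19.1 with LIF (-0.30, adjusted p = 0.653). With lithium the Mxd1 groups did not overlap, at 14.6 to 21.4 without LIF and 10.8 to 14.5 with LIF. That was so for 33.4% of tested probe sets, and the Mxd1 change of 0.49 did not pass (adjusted p = 0.4, limma). Mxd3, which unlike its relatives is linked to the S phase of dividing cells, had 35.7 to 38.6 without LIF and 37.1 to 48.9 with LIF (-0.25, adjusted p = 0.612). With lithium Mxd3 had 35.15 to 39.9 without LIF and 25.1 to 48.6 with LIF (0.12, adjusted p = 0.826). A second Mxd3 probe set, 1448878_at, differed from the brightest, with an averaged change of -1.03 ± 0.34 (adjusted p = 0.0427, limma), while the other, 1422970_at, gave -0.66 (adjusted p = 0.22).

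Mycl, a Myc paralog first found amplified in lung cancer, had 47.4, 40.03 and 48.4 without LIF and 27.6, 30.5 and 15.5 with LIF. With lithium it had 60.1, 41.8 and 52.6 without LIF and 36.1, 17.96 and 22.9 with LIF. Every LIF-free array of Mycl was above every LIF array, over 40.03 to 60.1 against 15.5 to 36.1, as for 8.22% of tested probe sets. Its change was 0.94 ± 0.33 without lithium (adjusted p = 0.0906) and 1.05 ± 0.33 with lithium (adjusted p = 0.0522), neither of which passed. With the replicate number as a block, the first had an adjusted p of 0.0357 in limma. The averaged change of 0.99 ± 0.23 passed (adjusted p = 0.00706, limma) and held without each of the 12 arrays (adjusted p up to 0.0208). The 2 dimmer Mycl probe sets had averaged changes of 0.57 and 1.48, and neither passed (adjusted p = 0.368 and 0.11).

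Myc itself, the founding member and a driver of proliferation, did not pass in any comparison. It had 140, 184 and 114 without LIF and 147, 81.2 and 105 with LIF, and the groups overlap. With lithium Myc had 153, 143 and 108 without LIF and 118, 109 and 73.3 with LIF, which also overlap. The changes were 0.41 ± 0.26 (adjusted p = 0.383) and 0.44 ± 0.26 (adjusted p = 0.315). The averaged change was 0.42, with a 95% interval of 0.02 to 0.83 (adjusted p = 0.121). Without the first LIF array its adjusted p was 0.0419.

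Mycn, the paralog that is prominent in embryonic tissue, was the Myc paralog with a negative change of its brightest probe set. It had 495, 574 and 536 without LIF and 624, 485 and 784 with LIF. With lithium Mycn had 452, 551 and 527 without LIF and 611, 715 and 575 with LIF. Here the LIF-free arrays were below the LIF arrays, and 33.4% of tested probe sets did not overlap in either direction. Neither change passed: -0.21 ± 0.17 (adjusted p = 0.485) and -0.31 ± 0.17 (adjusted p = 0.26). The averaged change was -0.26, with a 95% interval of -0.52 to -0.01 (adjusted p = 0.131), and it passed without the second LIF array (adjusted p = 0.037). The other Mycn probe sets were positive with lithium and negative without it. Probe set 1425922_a_at had 0.29 and -0.52, and the dim 1425923_at had 2.23 and -1.05, none of them called.

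Max, the partner with which Myc proteins bind DNA, had 53.0 to 68.9 without LIF and 34.5 to 127 with LIF (0.13, adjusted p = 0.891). With lithium Max had 47.2 to 63.9 without LIF and 33.2 to 73.7 with LIF (0.06, adjusted p = 0.946). The 95% interval of the first was -0.79 to 1.05, and the third LIF array had the highest Max signal of the 12.

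**Figure D3:**
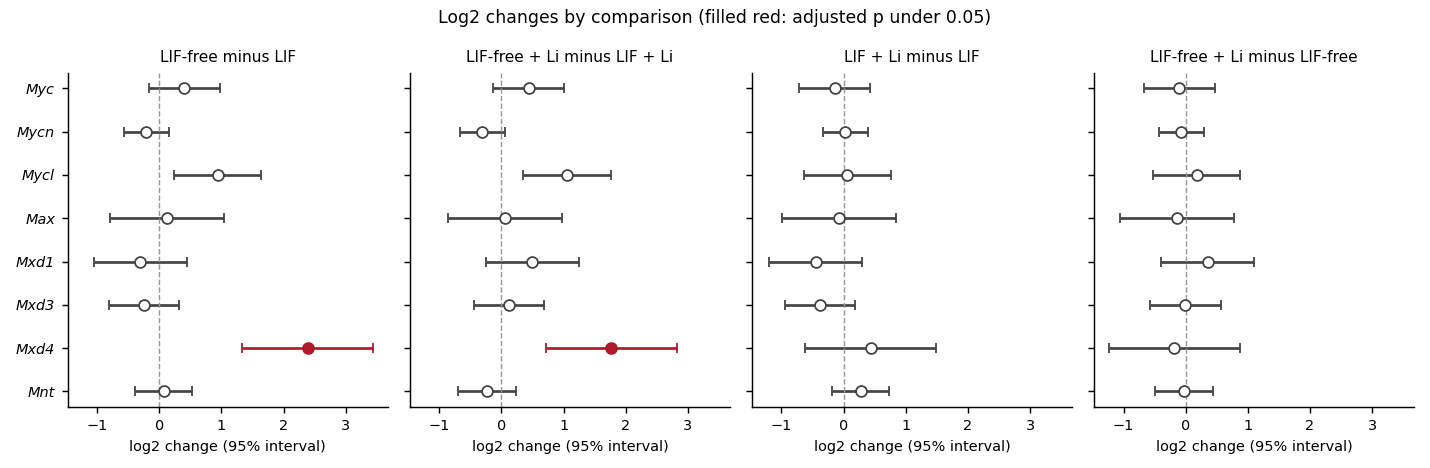
Log2 change of the 8 members, with 95% intervals, for LIF withdrawal with and without lithium and for lithium with and without LIF, with filled points for adjusted p under 0.05. The intervals of Mxd4 and Mycl lie above 0 in both withdrawals, those of Mxd4 were called (2.39 without lithium and 1.77 with it), and no lithium change was called.

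No member was called for lithium at the labelled dose, and since that dose was not checked, the lack of calls says nothing about a higher one. With LIF, the members' changes lay between -0.45 (Mxd1) and 0.44 (Mxd4), each with an adjusted p of 0.999 (limma), and 0% of probe sets were called. Without LIF they lay between -0.18 and 0.35, each with an adjusted p of 1, and again 0% were called. At an unadjusted p under 0.05, 749 and 347 of 27022 probe sets were counted. Mxd1 was the member whose arrays with LIF and lithium lay below those with LIF (10.8 to 14.5 against 15.6 to 19.1), and 6.72% of probe sets did not overlap in that comparison. The interaction, the change on withdrawal with lithium minus that without, lay between -0.62 (Mxd4) and 0.80 (Mxd1) with an adjusted p of 0.999, and 666 probe sets had an unadjusted p under 0.05. Some dimmer probe sets had larger values that did not pass either, among them Mxd4 1422574_at with -2.81 for lithium with LIF (unadjusted p = 0.00103, adjusted p = 0.999) and Mycn 1425923_at with 3.27 for the interaction (unadjusted p = 0.0282, adjusted p = 0.999). No gene of the lists described next was called for lithium or for the interaction. The pair with the smallest p in each list, for lithium with LIF, was Mxi1 (-0.10) and Mlxipl (0.25), Sin3b (0.19) and Ruvbl1 (0.15), Rrs1 (0.53) and Pa2g4 (-0.26), and Ndrg1 (0.35) and Cdkn1b (-0.34). Without LIF it was Mlxipl (1.12) and Mxi1 (-0.23), Zbtb17 (0.53) and Tfap4 (-0.40), Apex1 (-0.26) and Odc1 (-0.36), and Cdkn1a (-0.29) and Ndrg2 (0.38). For the interaction it was Mlxipl (0.87) and Mxi1 (-0.13), Ruvbl1 (-0.25) and Zbtb17 (0.50), Rrs1 (-0.72) and Apex1 (-0.36), and Ndrg1 (-0.38) and Cebpa (0.73). Mlxipl is a glucose-responsive partner of Mlx, and Zbtb17 is Miz-1, through which Myc represses genes. The Mlxipl signals without LIF and without lithium were 5.66, 8.37 and 10.5, near the filter signal of 7.52. With arrays centred on their medians the values of Mxi1, Pa2g4 and Cdkn1b for lithium with LIF and that of Zbtb17 for the interaction had the other sign.

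The rest of the network was read from lists of other Max, Mlx and Myc partners and of Myc targets. Among 5 further network genes, Mxi1, an Mxd family repressor also known as Mxd2, fell. Its signal was 167, 187 and 185 without LIF and 244, 295 and 302 with LIF. With lithium Mxi1 had 145, 158 and 156 without LIF and 208, 285 and 296 with LIF. The groups do not overlap, as for 27.5% of tested probe sets without lithium and 33.4% with it. The changes of Mxi1 were -0.64 ± 0.16 (adjusted p = 0.0256, limma) and -0.77 ± 0.16 (adjusted p = 0.00868, limma). Mxi1 thus had the sign opposite to that of Mxd4. Without lithium its call ended on centring arrays on their medians (adjusted p = 0.519), with no intensity trend (0.0539), with the compared arrays alone (0.0648), and when the second or the third LIF array or any LIF-free array was left out (up to 0.0937). The averaged change of -0.70 held without each of the 12 arrays. Mlxip, a partner of Mlx in the response to glucose, rose in the averaged comparison (0.43, adjusted p = 0.0236, limma), a call that 6 of the 12 arrays ended when left out, among them the second LIF-free array (0.0631), and that median centring ended too (0.217). The other 3, Mga, Mlx and Mlxipl, did not pass in any comparison, although with the replicate block Mga had an adjusted p of 0.0388 for its change of -0.54 without lithium.

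Of 22 cofactors of Myc and Mxd proteins, 2 rose and 4 fell without lithium, 2 rose and 3 fell with lithium, and 2 rose and 6 fell in the averaged comparison. Without lithium 2 rose and 6 fell with the replicate block. Leaving out 1 array gave 1 to 7 calls without lithium, of which 1 without the first or the second LIF-free array, 2 without the second LIF array and 3 without the third LIF or LIF-free array. With lithium it gave 1 to 8, of which 1 without the second and 3 without the first LIF-free array with lithium, 2 without the third array with LIF and lithium, and 8 without the third LIF array. Over all 12737 genes, 12.6% were called without lithium (7.47% higher and 5.09% lower), 16.1% with lithium (9.48% and 6.57%) and 30.9% in the averaged comparison. Sin3b, a scaffold of the repressor complex that Mxd proteins recruit, rose by 0.94 ± 0.12 without lithium (adjusted p = 0.00157, limma) and 0.79 with it (adjusted p = 0.00199). Its signal averaged 2091 ± 163 without LIF and 1086 ± 73.2 with LIF (SD, n = 3 each). Hdac2, a deacetylase of that complex, fell by 0.52 and 0.51 (adjusted p = 0.0158 and 0.014, limma). The array codes of the Sin3b, Shmt2 and Hdac2 probe sets mark them as possibly shared with other transcripts. So do those of Rrs1, Apex1, Odc1 and Ndrg1, named above, and of Plagl1, Adcy7 and Elovl1, named below. Bin1, which binds and restrains Myc, rose by 1.01 and 1.05 (adjusted p = 0.0191 and 0.0127, limma). Kat2a, an acetyltransferase Myc recruits, fell by 0.93 without lithium (adjusted p = 0.0275, limma), and Usp28, a deubiquitinase that stabilises Myc in human cells, fell by 1.31 with it (adjusted p = 0.00943, limma). The averaged changes of Sin3b, Hdac2, Bin1 and Usp28 held without each of the 12 arrays, as did both of the separate Sin3b calls. Without lithium, the calls of Hdac2 and Bin1 ended without the first or second LIF-free array, that of Bin1 also without the second LIF array, and that of Kat2a without the second or the third LIF array or any LIF-free array (adjusted p up to 0.0909). With lithium, the calls of Hdac2, Bin1 and Usp28 ended without the second LIF-free array with lithium. Those of Hdac2 and Bin1 also ended without the third array with LIF and lithium. That of Bin1 ended without the first LIF-free array with lithium as well. In these fits the adjusted p rose up to 0.0742 (limma). Median centring ended the calls of Hdac2 and Kat2a without lithium (adjusted p = 0.6 and 0.268) and of Sin3b, Bin1 and Hdac2 with lithium (0.3, 0.134 and 0.0747). Without lithium, no intensity trend ended the calls of Hdac2 and Kat2a (0.055 and 0.0647), and the compared arrays alone ended those of Hdac2, Bin1 and Kat2a (0.0616, 0.0652 and 0.0884).

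Of the 38 genes induced by Myc that were tested of 40, 4 fell and none rose without lithium, and with lithium 7 fell and 1 rose. Leaving out 1 array gave 1 to 8 calls without lithium, of which 1 without the second LIF or LIF-free array, 2 without the third LIF array and 8 without the first LIF array. With lithium it gave 1 to 10 calls, of which 1 without the first and 3 without the second LIF-free array with lithium, and 2 without the second or the third array with LIF and lithium. The medians ranged over -0.33 to -0.19 without lithium and -0.29 to -0.17 with it. In the averaged comparison 11 fell and 1 rose, with a median of -0.22, against 0.03 over all genes. Over all genes 13.5% fell and 17.4% rose in that comparison. Without lithium 5.09% of all genes fell and 7.47% rose, and with lithium 6.57% fell and 9.48% rose. Shmt2, the mitochondrial serine hydroxymethyltransferase, fell by 1.41 ± 0.29 without lithium (adjusted p = 0.0108, limma) and 1.32 with it (adjusted p = 0.0121). Dkc1, which modifies ribosomal RNA, fell by 0.87 (adjusted p = 0.0258, limma) and 1.09 (adjusted p = 0.00735). Shmt1, the cytosolic counterpart of Shmt2, fell by 0.55 (adjusted p = 0.0266, limma) and 0.61 (adjusted p = 0.0131). Nolc1, a nucleolar protein, fell by 0.59 without lithium (adjusted p = 0.0259, limma), and Nampt, which makes an NAD precursor, fell by 0.83 with lithium (adjusted p = 0.0161, limma). The gene that rose is the cell cycle cyclin Ccnd2, named after its value was seen, by 1.71 with lithium (adjusted p = 0.0205, limma), and without lithium by 1.36, which did not pass (adjusted p = 0.0631, but 0.00231 with the replicate block, 0.0176 with median centring and 0.0483 with the 60th percentile filter). With the replicate block, 2 of these targets rose and 10 fell without lithium. The averaged changes of Shmt2, Dkc1 and Shmt1 held without each of the 12 arrays. Without lithium, Dkc1 and Shmt1 lost their calls without the second or the third LIF array or the first or second LIF-free array, and Shmt1 also without the third LIF-free array (adjusted p up to 0.109). With lithium, Shmt2 and Shmt1 lost theirs without the second array with LIF and lithium or the first LIF-free array with lithium (up to 0.0648). Shmt2 also did so without the third array with LIF and lithium. The Ccnd2 call with lithium ended without the second or the third array with LIF and lithium. It also ended without the first or second LIF-free array with lithium (adjusted p up to 0.0938, limma). The Nolc1 call ended without the second LIF array or the second or the third LIF-free array (up to 0.0951). The Nampt call ended without the third array with LIF and lithium or the first or second LIF-free array with lithium (up to 0.0826). On median centring Shmt2, Dkc1 and Shmt1 no longer passed without lithium (adjusted p = 0.0829, 0.336 and 0.583), nor did Nolc1 (0.46). Median centring raised all changes without lithium alike, that of Shmt2 from -1.41 to -1.22, so that the list median was smaller in size. It lowered those with lithium. Without lithium, Dkc1, Nolc1 and Shmt1 also lost their calls with no intensity trend (0.0681, 0.0673 and 0.0627), and Nolc1 and Shmt1 with the compared arrays alone (0.0866 and 0.077). With median centring, the calls of Shmt1 (0.0578) and Nampt (0.0566) with lithium ended too.

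Of 10 genes repressed by Myc, 1 rose and 1 fell without lithium, and 3 rose and 1 fell with lithium. In the averaged comparison 4 rose and 3 fell, with a median of 0.25. Over all genes, 12.6%, 16.1% and 30.9% were called in the same order of comparisons. For this list, leaving out 1 array gave 2 to 3 calls without lithium, 2 to 4 with it and 4 to 7 in the averaged comparison. The list medians were then 0.16 to 0.38, 0.10 to 0.31 and 0.19 to 0.32. The median was 0.38 without the first LIF array in the pair without lithium, and 0.10 without the second array with LIF and lithium in the other pair. The count with lithium was 2 without the second LIF-free array with lithium, and the averaged count was 4 without that array, the first of its group, the second LIF-free array or the second array with LIF and lithium. Klf6, a zinc finger factor, rose by 1.18 ± 0.16 without lithium (adjusted p = 0.00177, limma) and by 1.18 with it (adjusted p = 0.00119). Ndrg2, a differentiation-linked gene that Myc represses, fell by 1.91 ± 0.39 (adjusted p = 0.0101, limma) and 1.77 (adjusted p = 0.0114). Cebpa, a differentiation factor, rose by 2.08 with lithium (adjusted p = 0.00687, limma), as did Thbs1, a matrix protein, by 1.24 (adjusted p = 0.028, limma). With the replicate block, 4 rose and 3 fell without lithium. The Klf6 and Cebpa calls and that of Ndrg2 without lithium held without each of the 12 arrays. That of Ndrg2 with lithium ended without the third array with LIF and lithium (adjusted p = 0.0615, limma). It also ended without the first or second LIF-free array with lithium. The Thbs1 call ended without the second or the third array of either group with lithium (adjusted p up to 0.131, limma). Median centring ended the Klf6 and Thbs1 calls with lithium (adjusted p = 0.0776 and 0.178), and no intensity trend ended that of Thbs1 (0.0576). Median centring lowered all changes with lithium alike, that of Klf6 from 1.18 to 0.83. The list median of 0.23 with lithium then had the other sign.

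**Figure D4:**
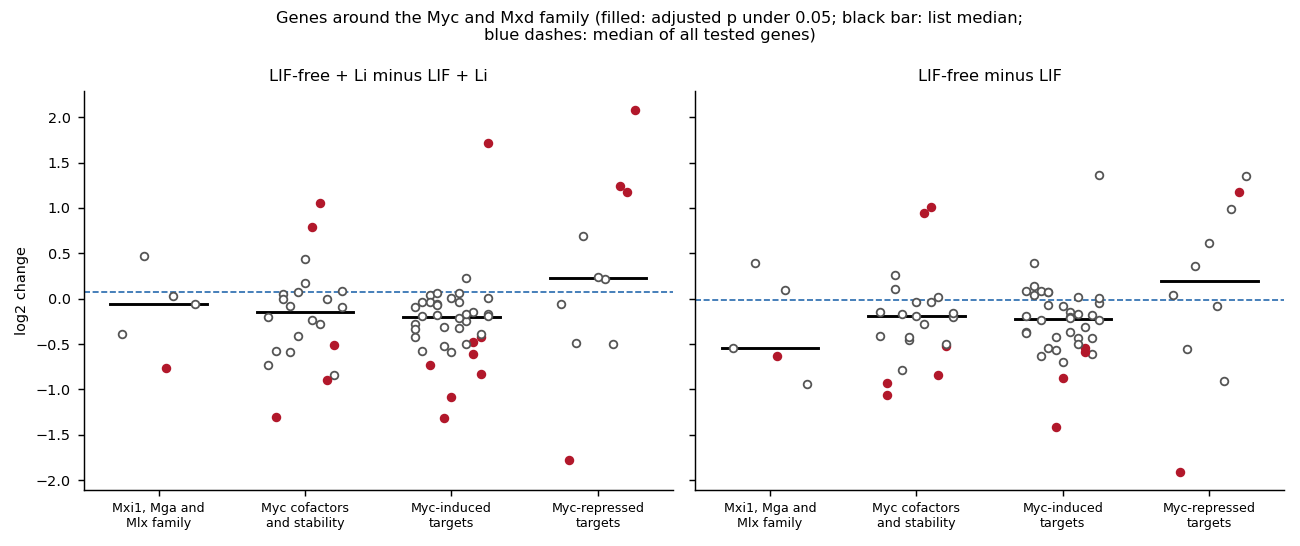
Log2 change on LIF withdrawal, with and without lithium, of each tested gene of 4 lists (further network genes, cofactors, genes induced by Myc and genes repressed by Myc), with the list median as a black bar, the median of all tested genes as a dashed line, and filled points for called genes. Induced targets have medians of -0.23 without lithium and -0.20 with it, and repressed targets 0.20 and 0.23. With arrays centred on their medians, the repressed median with lithium had the other sign.

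Genes with the most similar pattern to Mxd4 over the 12 arrays, by Pearson's r among 12208 genes, were Tnfaip1 (0.994), Adcy7 (0.977), Gpr89 (0.9725), Pex2 (0.971) and Elovl1 (0.970). For Mycl they were Cpne2 (0.973), Zup1 (0.968), Gpx8 (0.957), Tmem106b (0.949) and Ctps2 (0.948). For Myc they were Plagl1 (0.920), Cpeb4 (0.919), Bicra (0.914), Axl (0.908) and Slc22a17 (0.906), and for Mycn Nf2 (0.910), Pcgf2 (0.910), Fiz1 (0.886), Tbc1d13 (0.882) and Lmnb2 (0.882). The 12 arrays share 4 groups and 3 replicate numbers, so that these are descriptions of likeness in these arrays.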

How the data were processed

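RNA of 12 cultures was hybridised to Affymetrix mouse expression arrays, 3 per group, numbered as biological replicates in the titles; per the design text each replicate drew on 3 experiments. The deposited values are MAS5 intensities on a linear scale, per the submitters' processing notes, with no version given; the 2% trimmed mean was 100.001 on each array, so the authors scaled the arrays to one level. How the probe sets were summarised beyond MAS5 is not given in the sources used here.

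From these, 64 control probe sets were left out, signals under 1 were set to 1, and log2 was taken. Probe sets were tested if their mean log2 signal was above the 40th percentile (27022). Of the values of these tested probe sets, 0.146% had been under 1. Limma 3.58.1 (R 4.3.3) fitted 4 group means over the 12 arrays with an intensity trend, and 6 comparisons were made, with Benjamini-Hochberg adjustment and a threshold of 0.05. Tests were tried on simulated data first. Figures used Python 3.11.15 and matplotlib 3.10.9. Array number, not depth, limits precision, and arrays correlated at 0.875 to 0.953.

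Probe sets had 1 annotated symbol (34945), several (932) or none (9160). All 20 member probe sets matched the RefSeq gene table by gene ID with the same symbol. The members and the lists were chosen with earlier results of these data known. Each member is named. From each list up to 4 called genes with the smallest p in each comparison are named, or, where none was called, the 2 with the smallest p. Likeness takes the 5 highest r for Myc, Mycn, Mycl and each called member. Ccnd2 was added after its value was seen. The lists hold 5, 22, 40 and 10 genes, and Mat2a and Impdh2 had no probe set under that symbol.

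Replicate numbers were taken to pair samples where deviations from the group means correlated above 0.1 in all 3 pairs. This held without lithium for withdrawal (0.438, 0.137 and 0.339), and for lithium with LIF (0.499, 0.139 and 0.321) and without LIF (0.462, 0.111 and 0.300), but not for withdrawal with lithium (0.451, 0.0972 and 0.379). The main fits left this pairing out in all comparisons, and the replicate block is given as an alternative. Alternatives were quantile normalization, median centring, a pseudocount of 16, other filters, no trend, the compared arrays alone, the replicate block, the other probe sets, and leaving out each array.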

Additional observations from a re-analysis of the deposited data

How the results depend on the processing

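With 3 arrays per group the precision is limited, and dim probe sets lie close to background. The number of probe sets called without lithium (2515) was 1560 with median centring, 5260 with the replicate block, 1674 with no intensity trend and 1168 with the compared arrays alone, and 1039 (without the second LIF-free array) to 3950 (without the first LIF array) when 1 array was left out. With lithium (3368) it was 1490 with median centring and 5938 with the replicate block, and 1360 (without the third array with LIF and lithium) to 4311 when 1 array was left out, with 1499, 1522 and 1806 without the first or the second LIF-free array with lithium or the second array with LIF and lithium. Averaged (6678) it was 3690 with median centring and 5264 to 7483 when 1 array was left out. For lithium with LIF it was 0 to 2 when 1 array was left out. Members called without lithium numbered 2 with the replicate block and 1 in each leave-one-out fit. With lithium they numbered 0 with quantile normalization, median centring, no filter and no intensity trend (Mxd4 adjusted p = 0.0989, 0.0873, 0.0546 and 0.053, limma). They numbered 2 with a pseudocount of 16, the 60th percentile filter and the replicate block (Mycl adjusted p = 0.042, 0.0405 and 0.0189, limma), and 0 to 2 when 1 array was left out. Averaged, they numbered 2 to 3 when 1 array was left out. The replicate block changed no other member's call in the comparisons where numbers pair samples. For withdrawal with lithium and for the averaged comparison the numbers were not taken to pair the samples, and with the block Myc averaged had an adjusted p of 0.0381 (limma). Median centring moved the median of all probe sets from -0.07 to 0.13 without lithium, from 0.11 to -0.23 with lithium, and from -0.08 to 0.29 for lithium with LIF. The cause of these differences was not tested.

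Signs that changed belonged to uncalled values, except where another probe set was used. For withdrawal with lithium, quantile normalization gave Max -0.036 and Mxd3 -0.10, and median centring gave -0.28 and -0.23. For lithium with LIF, quantile normalization gave Mycn -0.026 and Max 0.017, and median centring gave Myc 0.23, Max 0.30, Mxi1 0.27, Pa2g4 0.11 and Cdkn1b 0.025. For the interaction, quantile normalization gave Myc -0.047 and Mycl -0.24, and median centring gave Myc -0.50, Mycl -0.42, Mxd3 -0.17 and Zbtb17 -0.034. Among other probe sets of Mxd4, 1422574_at gave -0.27 for withdrawal without lithium, -2.81 and 0.059 for lithium with and without LIF, and 2.87 for the interaction, and 1422575_at gave -0.0065, -0.49, 0.75 and 1.24. For Mycn, 1425922_a_at gave 0.29 for withdrawal with lithium, -0.37 and 0.44 for lithium with and without LIF, and 0.81 for the interaction, and 1425923_at gave 2.23, -1.60, 1.67 and 3.27, and 0.59 averaged. For Mycl, 1422087_at gave -0.32 and -0.62 for lithium with and without LIF and -0.30 for the interaction, and 1422088_at gave -0.53, -0.67 and -0.14. For Mxd3, 1422970_at gave -0.56 for withdrawal with lithium and 0.014 and 0.21 for lithium with and without LIF, and 1448878_at gave -1.33 for withdrawal with lithium and -0.59 for the interaction.

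Leaving out 1 array turned the sign of further uncalled values. For withdrawal without lithium, Max ranged over -0.24 to 0.70 and Mnt over -3.8e-05 to 0.20, and with lithium Max over -0.29 to 0.28 and Mxd3 over -0.10 to 0.38. For lithium with LIF, the ranges were -0.35 to 0.082 for Myc, -0.15 to 0.20 for Mycn, -0.24 to 0.29 for Mycl, -0.43 to 0.50 for Max, -0.19 to 0.84 for Mxd4, -0.20 to 0.057 for Mxi1, -0.021 to 0.59 for Mlxipl and -0.55 to 0.062 for Cdkn1b. For lithium without LIF, they were -0.27 to 0.075 for Myc, -0.13 to 0.012 for Mycn, -0.063 to 0.030 for Mxd3, -0.35 to 0.057 for Mxd4 and -0.13 to 0.16 for Mnt. For the interaction, they were -0.19 to 0.24 for Myc, -0.27 to 0.078 for Mycn, -0.11 to 0.42 for Mycl, -0.64 to 0.30 for Max and -1.03 to 0.0048 for Mxd4. Averaged, they were -0.086 to 0.38 for Max, -0.17 to 0.063 for Mxd3 and -0.18 to 0.016 for Mnt. Uncalled withdrawal values that kept their sign but moved by over 1.5 times when 1 array was left out included, without lithium, Myc over 0.20 to 0.63, Mycn over -0.39 to -0.04 and Mxd1 over -0.44 to -0.08, and with lithium, Myc over 0.23 to 0.59 and Mnt over -0.42 to -0.04. Averaged, Mxd1 ranged over 0.03 to 0.21.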
